A study of Mus musculus with 9 samples.

Results

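Nasal lipocalins and odorant-binding proteins are small secreted proteins whose barrel-shaped fold holds hydrophobic molecules. Here they are the genes Obp1a, Obp2a, Obp2b, Lcn3, Lcn4, Lcn11, Lcn13 and Lcn14, a list of 8 names. They were chosen for their known place in the secretions of nasal and vomeronasal glands and not by their values, though with earlier results of these data known. Of these names, 6 had a row of their own among the 24421 gene rows, and all 6 were among the 20213 genes tested. The other two, Lcn13 and Lcn14, are synonyms of Obp2a and Obp2b in RefSeq, so that no gene of the list was without a row.

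Expression was measured by RNA-seq of whole main olfactory epithelium (MOE), the sensory lining of the nose, in 9 mice labelled as C57BL/6 at postnatal day 14. All came from a single line in which TAAR enhancer 1, a noncoding element of the trace amine-associated receptor (Taar) gene cluster on chromosome 10, had been deleted by CRISPR-Cas9. The groups were 3 wild type (WT) mice, 3 mice with 1 deleted copy (het) and 3 mice with both copies deleted (homo), described by the study as littermates. The labels name no treatment or transgene in any group, and 1 line cannot separate the deletion from other changes near it. The study's reporting form gives another age and a mixed background for this line, which could not be reconciled with the sample labels.

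Each library held between 24583906 and 32631951 reads in genes, and levels are given as CPM, read counts scaled to library size with TMM factors. The deletion was visible in the libraries, since the summed level of Taar2 to Taar5 was 9.11 to 10.3 CPM in WT, 5.34 to 6.54 CPM in het and 0.0387 to 0.106 CPM in homo mice. The tissue showed its defining markers in each library, with olfactory marker protein, Omp, at 3045 CPM or more and the sustentacular cell gene Cyp2g1 at 2067 CPM or more. The libraries also differed in receptor transcripts of the vomeronasal organ, a second sense organ of the nose, and the libraries rich in them were het and homo mice only. These receptors summed to between 14.6 and 17.3 CPM in 6 libraries, but to 67.9 CPM in het replicate 1, 120 CPM in homo replicate 2 and 69.5 CPM in homo replicate 3. The WT libraries were all among the 6, so genotype and this difference cannot be fully told apart. Of 179 receptor genes tested 0 were called between genotypes. Their median log2 fold change was nevertheless 4.4 between homo and WT mice and 3.1 between het and WT mice. These medians can overstate the difference, since all 330 receptor genes together held only 14.6 to 16 CPM in WT libraries, so that single genes were near the floor. Still, the absence of calls does not show the genotypes to be alike in these receptors.

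Lipocalins of the nose are made mainly by glands and released into the mucus, where odorants and pheromones dissolve before they reach the receptors. Odorant-binding proteins bind odorants in this mucus and have been proposed to carry or to remove them. Lcn3 and Lcn4 were first described as vomeronasal secretory proteins, made in glands of the vomeronasal organ and the nasal septum. The olfactory sensory neurons themselves are not their known source, and in whole tissue a change in the number of gland cells and a change in RNA per cell cannot be told apart.

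The genes lie in 2 places in the genome. On chromosome 2 of GRCm38.p6, Obp2a (25697577 to 25703326), Obp2b (25714109 to 25740124), Lcn3 (25765533 to 25768098) and Lcn11 (25777017 to 25780279) follow each other, and Lcn4 (26667674 to 26671282) lies 887 kb beyond Lcn11 on the opposite strand. Obp1a (78085505 to 78091374) lies on the X chromosome, in a separate cluster of odorant-binding protein genes. Each transcript has 7 exons in GENCODE M21, except Lcn11 with 6, and the exons sum to between 652 and 774 bases. Among pairs of the 6 genes, transcripts were most alike for Obp2a and Obp2b, identical at 70.8% of aligned bases. The other pairs lay between 52.5%, for Lcn3 and Lcn11, and 60.6%, for Lcn4 and Lcn11. Obp1a and Lcn11 were identical at 53.6%.

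The sequences before the transcript starts are shown because they set one pair of genes apart. For each gene they are the 100 bases of the RefSeq promoter window (GRCm38.p6) that end just before the transcript start, the earlier of the one behind that window and the one in GENCODE M21, written along the gene's own strand. The RefSeq spans of Obp2a and Obp2b given above begin further upstream, so for these 2 genes the stretch lies inside the span. Capitals mark the letters TATAAA, the core of a TATA box, searched on both strands.
Obp2a, chr2:25699943-25700042, plus strand: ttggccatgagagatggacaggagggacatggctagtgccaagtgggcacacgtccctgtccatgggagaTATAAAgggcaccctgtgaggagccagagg
Obp2b, chr2:25736907-25737006, plus strand: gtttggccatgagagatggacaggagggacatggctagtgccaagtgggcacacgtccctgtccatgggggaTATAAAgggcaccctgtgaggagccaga
Lcn3, chr2:25765433-25765532, plus strand: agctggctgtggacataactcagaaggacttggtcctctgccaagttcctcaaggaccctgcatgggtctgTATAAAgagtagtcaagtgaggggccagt
Lcn4, chr2:26671283-26671382, minus strand: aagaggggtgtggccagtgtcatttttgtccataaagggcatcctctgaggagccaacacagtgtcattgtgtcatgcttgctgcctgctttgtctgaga
Obp1a, chrX:78091375-78091474, minus strand: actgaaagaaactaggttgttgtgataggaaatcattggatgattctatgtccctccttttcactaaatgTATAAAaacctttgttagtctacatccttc
Lcn11, chr2:25776917-25777016, plus strand: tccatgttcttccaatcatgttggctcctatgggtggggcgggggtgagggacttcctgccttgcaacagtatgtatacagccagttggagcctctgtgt

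Obp2a and Obp2b were identical at 97 of 98 aligned bases in this stretch, with 1 shared run of 67 bases, and so were far more alike before their starts than in their transcripts. Part of the same sequence returned before Lcn4, which matched Obp2a at 48 of 60 aligned bases (80.0%). The stretch before Lcn3 matched that of Obp2a at 65.3% of aligned bases, and those of Obp1a and Lcn11 matched each other at 47.4%. The letters TATAAA stood 28 to 30 bases before the start of Obp1a, Obp2a, Obp2b and Lcn3, and were found in neither the 300-base window of Lcn4 nor that of Lcn11. Over all 32851 RefSeq windows of 300 bases, 13.6% held these letters on either strand and 8.32% on the gene's own strand. A match is a description of the letters and not evidence of a used site.

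Per length, Obp1a and Obp2a had the highest levels of the 6 genes and Lcn4 by far the lowest. In RPKM, the CPM divided by the exon length in kb, the mean over the 9 libraries was 574 ± 299.6 for Obp1a (SD, n = 9) and 541 ± 273 for Obp2a. Obp2b followed at 415 ± 223 RPKM, Lcn3 at 333 ± 169.8 RPKM and Lcn11 at 308 ± 143 RPKM, while Lcn4 was at 21.2 ± 14.1 RPKM (SD, n = 9 each). Between libraries the ranges of the first 5 genes overlapped. Within libraries, Obp2a exceeded Obp2b per length in 9 of 9, by 1.21 to 1.45 times, Obp2b exceeded Lcn3 in 9 of 9, by 1.06 to 1.44 times, and Lcn11 exceeded Lcn4 in 9 of 9, by at least 6.86 times. Obp1a exceeded Obp2a in only 5 of 9 libraries, and Lcn3 exceeded Lcn11 in 5 of 9, so those neighbours in the order could not be ranked. By mean CPM, Obp1a stood at rank 202 of all genes, Obp2a at 232, Obp2b at 409, Lcn3 at 714, Lcn11 at 898 and Lcn4 at 10129. The 6 genes together took between 0.0664% of the gene reads in het replicate 3 and 0.285% in het replicate 1.

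The first question was whether these gland products changed with the enhancer genotype. Obp2a, an odorant-binding protein gene, had 500.3, 426 and 343 CPM in WT replicates 1 to 3, 869, 269.5 and 183 CPM in the het replicates, and 462, 316 and 256 CPM in the homo replicates. Obp2b, its close paralog, had 368, 347 and 247 CPM in WT, 689, 183 and 146 CPM in het, and 325, 223 and 205 CPM in homo mice. In both genes the highest and the lowest library of the whole set were het mice, and the 3 groups overlapped.

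Lcn3 had 263, 288 and 160.4 CPM in the WT replicates, 497, 134 and 113 CPM in the het replicates, and 227, 197 and 173 CPM in the homo replicates. Lcn4 was lower throughout, with 19.7, 12.7 and 15.4 CPM in WT, 41.9, 8.02 and 6.16 CPM in het, and 21.98, 13.9 and 8.05 CPM in homo mice. For these 2 vomeronasal secretory protein genes, too, het replicate 1 was the highest and het replicate 3 the lowest of the 9 libraries. Even the smallest of these values, that of Lcn4 in het replicate 3, rested on 182 reads.

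Obp1a and Lcn11 followed another order. Obp1a had 564, 259 and 386 CPM in WT, 539, 766 and 137 CPM in het, and 480.0, 662 and 121 CPM in homo mice. Lcn11, a lipocalin of less known function, had 264, 122 and 237 CPM in WT, 242, 325 and 79.4 CPM in het, and 185, 286 and 64.4 CPM in homo mice. For both genes het replicate 2 was the highest library and homo replicate 3 the lowest, with het replicate 3 next to it, and all groups overlapped.

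**Figure D1:**
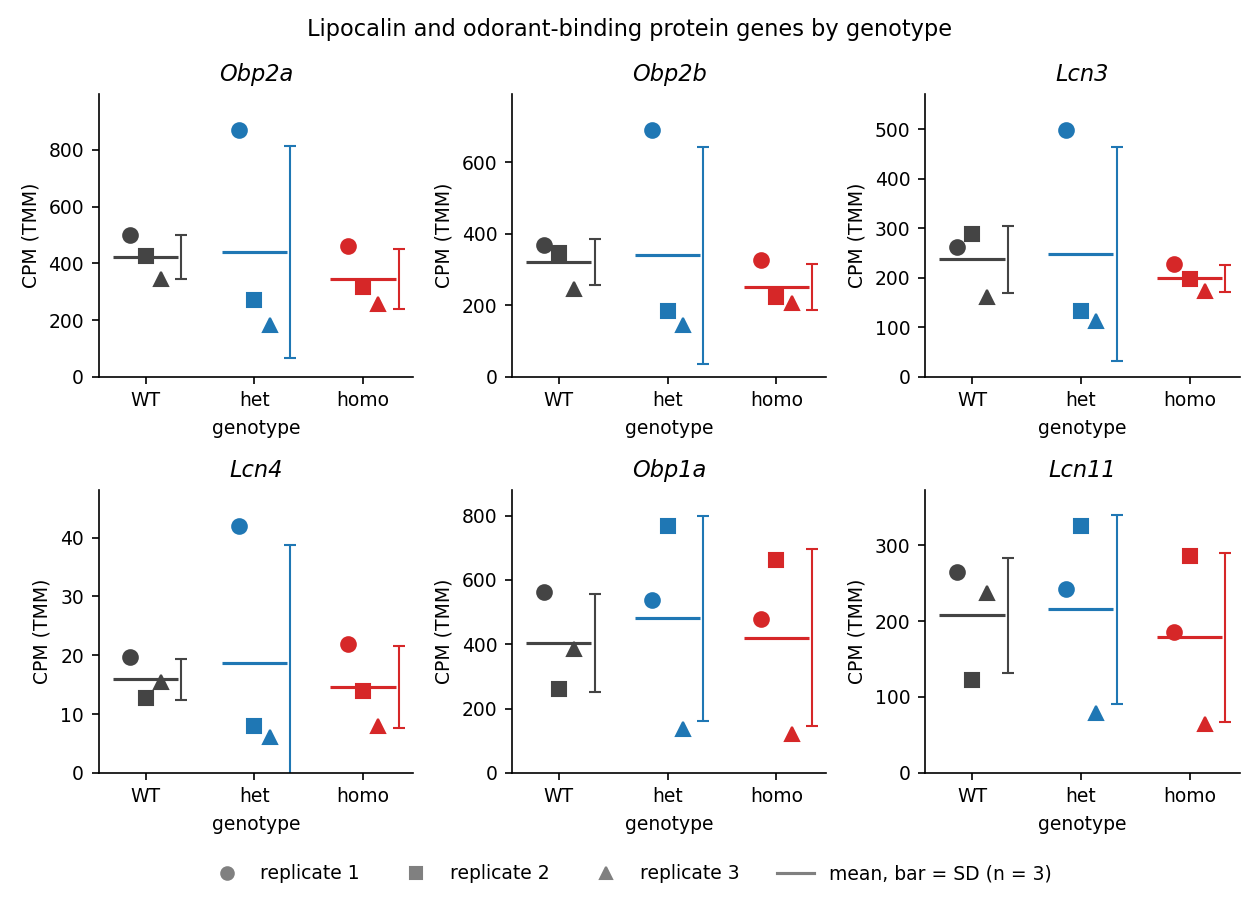
CPM (TMM) of each of the 6 genes on the vertical axes against genotype, with 1 point for each mouse, the mean as a horizontal line and the SD as a bar beside it (n = 3 per genotype; the axes start at 0, below which the SD bar of Lcn4 in het mice is not drawn). Obp2a, Obp2b, Lcn3 and Lcn4 are highest in het replicate 1 and lowest in het replicate 3, whereas Obp1a and Lcn11 are highest in het replicate 2 and lowest in homo replicate 3.

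No difference between homo and WT mice passed the test for any of the 6 genes. The largest was that of Obp2b, at 251 ± 64.8 CPM in homo and 321 ± 64.8 CPM in WT mice (SD, n = 3 each), a log2 fold change of -0.35 with an SE of 0.40 (adjusted p = 0.849 by edgeR's quasi-likelihood test). The interval of this difference reached from -1.20 to 0.49 on the log2 scale (95%), a ratio between 0.436 and 1.41, which spans sizeable changes in both directions. Its estimate of the spread is shared with the het mice, among which Obp2b differed 4.72-fold, beside 1.49-fold within WT and 1.59-fold within homo mice. With only the 6 libraries compared, the same difference had an unadjusted p of 0.0335 (adjusted p = 0.423, edgeR's quasi-likelihood test). Without het replicate 1 the unadjusted p was 0.0397 (adjusted p = 0.525, same test), and in either fit 1 of 6 genes was under 0.05. By edgeR's test on all 9 libraries Obp2a differed by -0.30 on the log2 scale (SE 0.39, adjusted p = 0.879), Lcn3 by -0.25 (SE 0.39, adjusted p = 0.898) and Lcn11 by -0.22 (SE 0.46, adjusted p = 0.927). Lcn4, with -0.11 (SE 0.52, adjusted p = 0.974), and Obp1a, with 0.06 (SE 0.52, adjusted p = 0.986 in edgeR), differed least. The median over the 6 genes was -0.23, beside -0.00057 over all genes tested. Called were 0 of 6 genes, where 10 of all 20213 genes (0.0495%) were called. In the fits of all 9 libraries 0 of 6 had an unadjusted p under 0.05, with edgeR as with DESeq2. With edgeR 1872 of all 20213 genes had such a p, so that 0 of 6 says little about these genes.

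The het mice gave the same picture with wider spread. Against WT, all 6 log2 fold changes were above 0, from 0.05 for Lcn11 to 0.25 for Obp1a, with SEs of 0.39 to 0.52. Obp1a was at 481 ± 319 CPM in het and 403 ± 153 CPM in WT mice (SD, n = 3 each), and its interval of 0.554 to 2.57 in ratio was the widest of the 6. By edgeR's quasi-likelihood test every adjusted p in this comparison was 1, and 0 of 6 genes were called, beside 1 of all genes (0.00495%). For 4 genes the sign turned most without het replicate 1, where Obp2a had a log2 fold change of -0.90, Obp2b of -0.96, Lcn3 of -0.94 and Lcn4 of -1.17 against WT. These 4 values had unadjusted p-values from 8.71e-05 to 0.00166 (edgeR's quasi-likelihood test), and the lowest adjusted p was 0.602, so that 0 of 6 genes were called there as well. Lcn11 was then at -0.039 and Obp1a still above 0 at 0.16, while without het replicate 2 Obp1a was at -0.26 and Lcn11 at -0.37. Without WT replicate 3 Obp2a was at -0.073, Obp2b at -0.077 and Lcn3 at -0.15, and without WT replicate 2 Lcn11 was at -0.22.

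Homo against het mice gave 6 log2 fold changes below 0, from -0.43 for Obp2b to -0.19 for Obp1a (median -0.33, beside -0.0017 over all genes). Their adjusted p-values by edgeR's quasi-likelihood test lay between 0.756 and 0.937, and 0 of 6 genes were called, beside 23 of all genes (0.114%). Here, too, 4 signs turned without het replicate 1, to 0.61 for Obp2a, 0.61 for Obp2b, 0.69 for Lcn3 and 1.06 for Lcn4, with unadjusted p-values from 0.00156 to 0.01 (edgeR's quasi-likelihood test) and a lowest adjusted p of 0.418. Without het replicate 2, Obp1a was at 0.32 and Lcn11 at 0.15, and without homo replicate 3 they were at 0.25 and 0.13. This comparison shares its libraries with the other two and is no separate evidence. In the test for any difference among the 3 genotypes 0 of 6 genes were called, beside 13 of all genes (0.0643%), and the lowest adjusted p was 0.903, that of Obp2b. Without the 3 libraries of highest vomeronasal receptor reads, which leaves 1 homo and 2 het mice, Lcn4 was called between homo and het mice (log2 fold change 1.64, adjusted p = 0.0133 in edgeR), in the direction opposite to that of all 9 libraries.

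**Figure D2:**
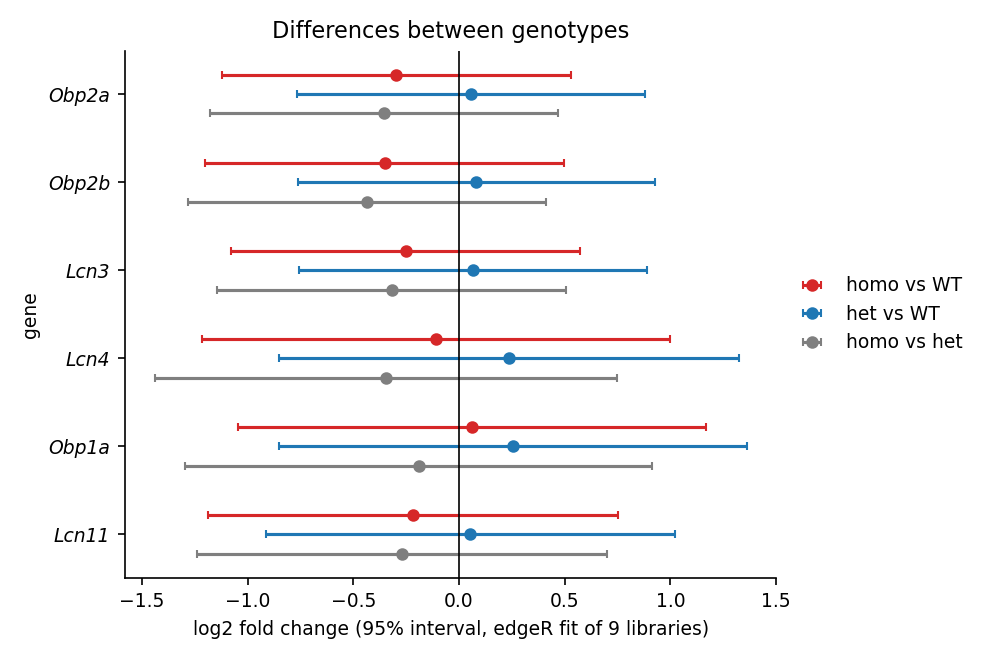
Log2 fold change of each of the 6 genes (horizontal axis) in the 3 comparisons between genotypes, as points with 95% intervals from the edgeR fit of 9 libraries. Every interval includes 0, as in the one from -1.12 to 0.53 for Obp2a between homo and WT mice and the one from -0.85 to 1.36 for Obp1a between het and WT mice.

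These genes varied widely between mice, though not alike in each genotype. Within WT mice the highest library was 1.46-fold the lowest for Obp2a, 1.49-fold for Obp2b, 1.8-fold for Lcn3 and 1.54-fold for Lcn4. Within homo mice these folds were 1.81, 1.59, 1.31 and 2.73, and the full range of these genes lay among het mice. For Obp1a and Lcn11 the folds were 2.17 and 2.17 within WT, 5.61 and 4.09 within het, and 5.49 and 4.44 within homo mice. Over all 9 libraries Obp2a differed 4.74-fold from lowest to highest, Obp2b 4.72-fold, Lcn3 4.39-fold, Lcn11 5.05-fold, Obp1a 6.35-fold and Lcn4 6.81-fold. The median over the 16167 genes with a mean of at least 1 CPM was 1.23-fold. The SD of log2 CPM within genotypes was 1.12 for Obp1a, 0.97 for Lcn4, 0.96 for Lcn11, 0.75 for Obp2b, 0.74 for Obp2a and 0.73 for Lcn3, and the median over these genes was 0.0935. Of the 16167 genes, between 99.67% and 99.88% had a lower SD than each of the 6. Such spread was not particular to them, since other secretory genes reached or passed it, with an SD of 1.34 for 5430402E10Rik, 1.18 for Gm14743 and 1.11 for Gm14744, odorant-binding protein genes of the X chromosome, 1.33 for Mup4 and 1.83 for Mup5, and 1.85 for Odam and 0.815 for Dmbt1, both gland genes. Differences between genotype means held between 0.917% of the variance of log2 CPM for Obp1a and 5.80% for Obp2b. The median over the 16167 genes was 24.7%. With 3 mice per genotype, part of the variance falls between groups without any genotype effect, so this median is not evidence of one.

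The spread was also computed without the libraries of highest vomeronasal receptor reads. Without the 3 libraries in which those receptors were highest, the SD within genotypes was 0.32 for Obp2a, 0.29 for Obp2b, 0.38 for Lcn3 and 0.30 for Lcn4. For Obp1a it was 1.11 and for Lcn11 0.96, about as large as with all libraries. Of the 16167 genes, 94.4% still had a lower SD than Obp2a, 92.74% than Obp2b, 96.8% than Lcn3 and 93.46% than Lcn4. The libraries kept include only 1 homo mouse, which adds nothing to an SD within genotypes. Among the 3 libraries left out, het replicate 1 was the highest of all for Obp2a, Obp2b, Lcn3 and Lcn4. Homo replicates 2 and 3, with vomeronasal receptors at 120 and 69.5 CPM, had Obp2a at 316 and 256 CPM. In the same 2 libraries Obp2b was at 223 and 205 CPM, Lcn3 at 197 and 173 CPM and Lcn4 at 13.9 and 8.05 CPM. Whether vomeronasal tissue in the dissection bears on these levels was not tested.

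**Figure D3:**
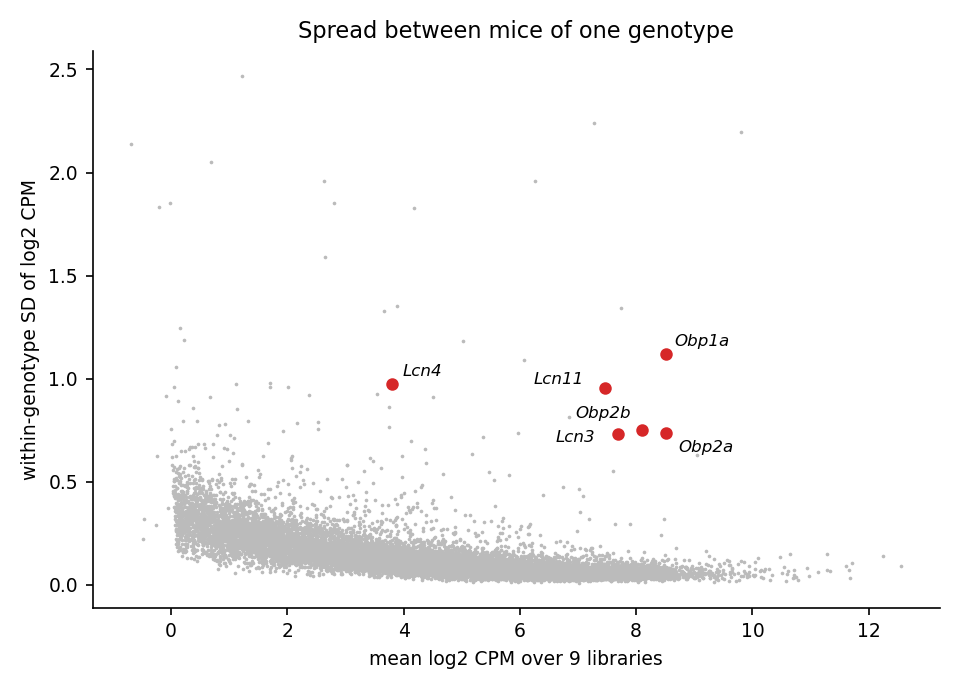
SD of log2 CPM within genotypes (vertical axis) against mean log2 CPM over the 9 libraries (horizontal axis), with the 16167 genes of at least 1 CPM on average in grey and the 6 genes in red. The 6 genes sit between 0.73 and 1.12, far above the median SD of 0.0935.

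The 6 genes did not vary together but in 2 groups, which were drawn after their values had been seen. Obp2a, Obp2b, Lcn3 and Lcn4 formed the first. Over the 9 libraries, the 6 pairs of these genes had Pearson's r of log2 CPM from 0.878 to 0.989 (Spearman's rho 0.750 to 0.967), and within genotypes r was 0.876 to 0.989. Leaving out the 2 libraries farthest from the median of the first gene of each pair, r was 0.609 to 0.969. The ratio of Obp2a to Obp2b in CPM stayed between 1.23 and 1.47, although each of the 2 genes differed at least 4.72-fold between libraries.

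Obp1a and Lcn11 formed the second group, with r = 0.980 and rho = 0.983 over the 9 libraries, r = 0.987 within genotypes, and r = 0.917 without homo replicate 3 and het replicate 3. Their ratio in CPM lay between 1.63 and 2.59. Across the groups, the 8 pairs had r from 0.265 to 0.542 and rho from 0.0833 to 0.350, and r from -0.371 to 0.352 without the 2 farthest libraries. The ratio of Obp1a to Obp2a accordingly ran from 0.472 in homo replicate 3 to 2.84 in het replicate 2. These correlations are descriptions over 9 libraries, and the points of a pair share the library, its depth and the piece of tissue.

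The groups followed position on the chromosome only in part. Obp2a, Obp2b and Lcn3 lie close together and had r from 0.951 to 0.989 with each other. Lcn11, however, starts 8918 bases beyond the end of Lcn3, yet Lcn3 came only at rank 4875 of 16166 genes by r with Lcn11, and the ratio of Lcn11 to Lcn3 in CPM ran from 0.372 in homo replicate 3 to 2.43 in het replicate 2. Lcn4, 887 kb away, came at rank 28 for Lcn3. Obp1a, on another chromosome, came at rank 4 for Lcn11.

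**Figure D4:**
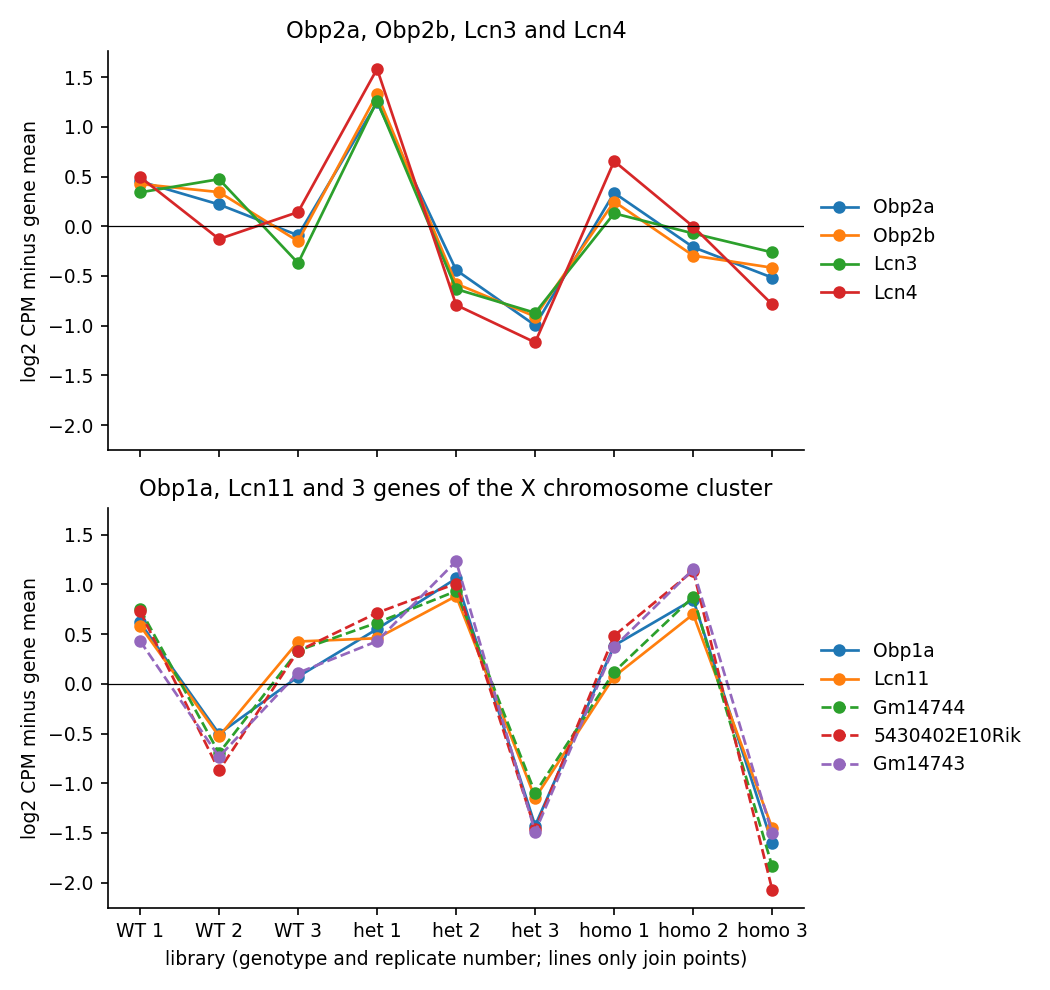
Log2 CPM minus each gene's mean over the 9 libraries (vertical axis) by library (horizontal axis), with Obp2a, Obp2b, Lcn3 and Lcn4 above and Obp1a, Lcn11 and 3 odorant-binding protein genes of the X chromosome below. In the upper panel het replicate 1 is highest and het replicate 3 lowest for each gene, while in the lower panel homo replicate 3 and het replicate 3 are the 2 lowest libraries for each gene.

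The genes whose profiles were most like Obp1a and Lcn11 were other odorant-binding protein genes of the X chromosome. Gm14744 (77864758 to 77870033), 5430402E10Rik (77919786 to 77925062) and Gm14743 (78240462 to 78245921) lie within 381 kb of each other, with Obp1a between them. Over the 9 libraries they ranged from 104 to 713 CPM, from 51.0 to 472 CPM and from 11.5 to 76.8 CPM. Gm14743 came first for Obp1a (r = 0.986, rho = 1), before 5430402E10Rik (r = 0.986) and Lcn11 (r = 0.980), and Gm14744 came first for Lcn11 (r = 0.991, rho = 1), before 5430402E10Rik (r = 0.984). The third for Lcn11 was Bhlha15, a transcription factor of secretory cells, with 8.43 to 22.3 CPM and r = 0.980. Lcn11 on chromosome 2 thus kept pace with the X chromosome genes, and its ratio to Gm14744 in CPM stayed between 0.418 and 0.617.

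Reads that match several of these paralogs may be missing from their counts, since reads not aligned uniquely were kept apart from the genes. The transcripts of Gm14744 and 5430402E10Rik are identical at 99.1% of aligned bases, and those of Gm14743 and Obp1b, a gene not analysed here, at 99.3%, so that their levels are uncertain. Obp1a itself was more distinct, with 92.8% of its stretches of 50 bases and 100% of those of 100 bases found in no other gene's transcript. The stretches it shared were with Gm5938, which was at most at 0.681 CPM. For Obp2a and Obp2b, 88.3% and 88.1% of the 50-base stretches were unique to the gene, and 100% of those of 150 bases. Lcn3, Lcn4 and Lcn11 were unique at each length.

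For the first group, the nearest profiles were mostly its own genes. Obp2b came first for Obp2a (r = 0.989) and for Lcn3 (r = 0.976), and Obp2a came first for Obp2b and for Lcn4 (r = 0.962). The others among the first 3 were Igtp, an interferon-induced GTPase, for Obp2a (r = 0.972, rho = 1) and Obp2b (r = 0.958), the hexokinase gene Hk2 for Lcn3 (r = 0.963), and for Lcn4 Ifi30, a lysosomal thiol reductase induced by interferon (r = 0.948), and the nuclear pore gene Aaas (r = 0.940). These genes varied over a narrower range than the lipocalins, from 4.36 to 7.69 CPM for Igtp, 44.0 to 57.5 CPM for Hk2, 19.0 to 23.5 CPM for Ifi30 and 20.7 to 25.1 CPM for Aaas.

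Genes that lie between the lipocalins of chromosome 2 did not share their spread. Of 43 RefSeq genes in this interval of 973.7 kb, 20 had a mean of at least 1 CPM, and 0 were called between any genotypes by edgeR's quasi-likelihood test. Bmyc, which lies between Obp2a and Obp2b, had 19.0 to 23.2 CPM and an SD within genotypes of 0.088. The one gene above the lipocalins' lowest SD of 0.733 was Gm13539, next to Lcn11, with 0.774 to 3.78 CPM, an SD of 0.853 and r = 0.85 with Lcn11.

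Other members of the lipocalin family were read from a list of 33 names, of which 25 had a row and 16 could be tested. In each comparison 0 of 16 were called, and the median log2 fold change was 0.063 between homo and WT, 0.047 between het and WT and -0.019 between homo and het mice. The most abundant were the X chromosome gene Gm14744, at 443 CPM on average, and Apod, a carrier of small lipids, at 276 CPM. Prostaglandin D2 synthase, Ptgds, was at 82.6 CPM, Gm14743 at 39.7 CPM and Lcn2, an iron-siderophore binding protein of neutrophils and epithelia, at 39.1 CPM. The X chromosome gene 5430402E10Rik, which was not on this list, averaged 269.9 CPM. Large spread was not shared by the whole family, for Apod ranged only from 230.0 to 301 CPM. The list's summed level was 672 to 1120 CPM in WT, 602 to 1240 CPM in het and 550.0 to 1190 CPM in homo mice, lowest in homo replicate 3.

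Markers of nasal glands also varied between libraries. Of 8 gland markers 0 were called in each comparison, and their sum was 1360 to 1560 CPM in WT, 964 to 1950 CPM in het and 1050 to 1310 CPM in homo mice, highest in het replicate 1 and lowest in het replicate 3, as for Obp2a. Between these extremes the order differed. In het replicate 2 the sum was 1600 CPM and Obp2a 269.5 CPM, and in homo replicate 1 they were at 1190 and 462 CPM. Dmbt1, a mucosal scavenger protein, was at 57.3 CPM in het replicate 3 and 369.6 CPM in het replicate 1, and the mucus proteins Ltf and Odam and the immunoglobulin receptor Pigr were also lowest in het replicate 3, at 266, 0.913 and 21.7 CPM. Their highest libraries differed, with Ltf at 847 CPM in het replicate 2, Odam at 26.3 CPM in WT replicate 3 and Pigr at 66.4 CPM in homo replicate 1. Other gland markers varied less, with 131 to 151 CPM for the water channel Aqp5 and 36.5 to 44.0 CPM for Sox10. Sox9 ranged from 21.7 to 33.6 CPM and Muc5b from 349 to 513 CPM. None of the 8 gland markers was at 0 in any library. Whether the share of gland tissue in the dissection bears on the lipocalin levels was not tested.

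Summed over each list, markers of the other cell types spread less. Single genes could still vary, as did Muc5ac of the respiratory list, from 10.15 to 40.47 CPM, and Dnah5, from 53.02 to 142.7 CPM. The sums of 7 sustentacular cell markers were 7020 to 7320 CPM in WT, 6620 to 7200 CPM in het and 6850 to 7310 CPM in homo mice, and those of 7 mature olfactory sensory neuron genes were 6530 to 6610, 6560 to 7060 and 6710 to 7290 CPM. The 7 respiratory epithelium markers, of which the club cell gene Scgb1a1 was at 0.0378 CPM or less, summed to 681 to 832 CPM in WT, 534 to 804 CPM in het and 594 to 722 CPM in homo mice, and were lowest in het replicate 3. In these 3 lists, too, 0 genes were called between any genotypes.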

How the data were processed

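Libraries were polyA-selected and strand-specific. The authors trimmed and mapped reads to mm10 (Trimmomatic 0.36 and HISAT2 2.1.0 per the submitters' notes) and deposited raw counts per gene. The methods name featureCounts and the submitters' notes HTSeq 0.6.1p1 as the counter, and the gene annotation and strand setting are not given in the sources used here. The authors also deposited a normalized signal, made by dividing each count by a size factor of its library (DESeq2 1.20.0, 0.903 to 1.20), which served only as a check. The 5 summary rows were left out (21.6 to 22.4% of reads in no gene, 16.9 to 19.4% not unique, 1.29 to 1.35% ambiguous).

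Genes with at least 10 counts over 9 libraries were tested with edgeR 4.0.16 in R 4.3.3 (TMM, quasi-likelihood, genotype as the only term, all libraries sharing 1 estimate of the spread, Benjamini-Hochberg over 20213 genes, threshold 0.05), after a test on simulated data. Log2 CPM used a prior count of 2. Likeness was Pearson's r over genes of at least 1 CPM on average, with the 3 nearest genes named for each gene and the 10 nearest to the mean profile. The 5 most abundant genes of the list of other lipocalins were named. RPKM used GENCODE M21 exon lengths, and coordinates are RefSeq's.

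Replicates are separate mice. Replicate numbers were not used as pairs in the main fit, and every pair of one genotype differed by more than sampling noise. Correlations of same-numbered libraries were highest between homo and het mice, at 0.25 for replicate 2 and 0.30 for replicate 3. Whether libraries of the same number share a litter or batch was not tested. Alternatives tried were other size factors (DESeq2), DESeq2 1.42.0 as a whole with and without independent filtering, no low-count filter, filterByExpr, the replicate number as a block, a vomeronasal receptor covariate, only the 6 libraries compared, raw library sizes, and leaving out libraries. The genes and lists were chosen with earlier results of these data known.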

Additional observations from a re-analysis of the deposited data

How the results depend on the processing

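By edgeR or DESeq2, 0 of 6 genes were called in each comparison with all 9 libraries, whichever size factors, filter, block or covariate were used, with only the 6 libraries compared, and without any 1 library. The exception was the fit without the 3 libraries of highest vomeronasal receptor reads, which leaves 1 homo mouse assumed to vary like the others. It called 1 gene (Lcn4) between homo and het mice and 2 (Lcn4 and Obp2b) for any difference among genotypes. DESeq2 with default settings called 63, 3, 130 and 123 of all genes (homo against WT, het against WT, homo against het, any difference) where edgeR called 10, 1, 23 and 13, and without independent filtering 54, 3, 126 and 104. Under the default settings 1 of the 6 genes, Lcn4, had no adjusted p between homo and WT. In edgeR the same counts were 13, 1, 50 and 33 without a low-count filter, 7, 1, 8 and 7 with the covariate, 9, 1, 6 and 10 without the 3 libraries, and 47, 0 and 11 in fits of 6 libraries. Leaving out 1 library gave 8 to 33, 0 to 1, 7 to 190 and 7 to 70 genes, each highest count without het replicate 3 except the second. Of 324 log2 fold changes under alternatives, 273 kept their direction and 51 reversed.

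The replicate block treats same-numbered libraries as related, which was not established (correlations of same-numbered libraries from -0.16 to 0.30). With the block Obp1a became -0.35 between homo and WT. Between het and WT mice Obp1a became -0.16, Obp2a -0.22, Obp2b -0.21, Lcn3 -0.16, Lcn4 -0.14 and Lcn11 -0.26. The replicate block called 12, 0, 41 and 20 of all genes and 0 of the 6. With the vomeronasal receptor covariate Obp1a became -0.074 between homo and WT, and between het and WT Obp2a became -0.27, Obp2b -0.30, Lcn3 -0.39, Lcn4 -0.19 and Lcn11 -0.051. Without the 3 libraries of highest vomeronasal receptor reads, Obp2a became 0.12, Obp2b 0.020 and Lcn4 0.47 between homo and WT. Between het and WT, Obp2a became -0.90, Obp2b -0.96, Lcn3 -0.94, Lcn4 -1.17 and Lcn11 -0.039, and between homo and het Obp1a became 0.089, Obp2a 1.03, Obp2b 0.98, Lcn3 0.88 and Lcn4 1.64.

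Leaving out 1 library at a time, the log2 fold change between homo and WT ranged from -0.42 to 0.50 for Obp1a, -0.53 to 0.18 for Lcn4 and -0.73 to 0.18 for Lcn11. Between het and WT it ranged from -0.26 to 0.69 for Obp1a, -0.90 to 0.42 for Obp2a, -0.96 to 0.44 for Obp2b, -0.94 to 0.41 for Lcn3, -1.17 to 0.66 for Lcn4 and -0.37 to 0.45 for Lcn11. Between homo and het it ranged from -0.67 to 0.32 for Obp1a, -0.72 to 0.61 for Obp2a, -0.79 to 0.61 for Obp2b, -0.66 to 0.69 for Lcn3, -0.77 to 1.06 for Lcn4 and -0.78 to 0.15 for Lcn11. The cause of these reversals was not tested. Each of the 6 genes had at least 182 reads in every library. With 3 mice per genotype, the intervals from all 9 libraries included 0 in each comparison. What limited the calls was not tested.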

Other observations

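The 10 genes whose log2 CPM followed the mean profile of the 6 genes most closely over the 9 libraries were Il18rap (r = 0.967), Oasl1 (r = 0.946), Oasl2 (r = 0.943), Lgals3bp (r = 0.929), Igtp (r = 0.928), Ifi30 (r = 0.928), Slc11a1 (r = 0.917), Drp2 (r = 0.917), Mx1 (r = 0.910) and Usp18 (r = 0.909). Oasl1, Oasl2, Igtp, Ifi30, Mx1 and Usp18 are known as interferon-induced genes, Il18rap is a subunit of the interleukin-18 receptor and Drp2 a dystrophin-related protein. Their ranges were narrower than those of the lipocalins, with 12.1 to 21.6 CPM for Oasl2, 1.97 to 5.70 CPM for Mx1 and 45.1 to 61.3 CPM for Lgals3bp. Without het replicates 3 and 1, the 2 libraries farthest from the median, r ran from 0.777 for Ifi30 and 0.787 for Drp2 to 0.977 for Oasl1. The genes were ranked from 16167 on 9 libraries that share depth and tissue with the profile, so the order is a description.

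Major urinary protein genes, lipocalins known as pheromone carriers, were also detected. Mup5 ranged from 0.947 CPM in het replicate 3 to 46.7 CPM in het replicate 2, and Mup4 from 2.13 CPM in het replicate 3 to 31.1 CPM in WT replicate 1. Over the 9 libraries Mup4 had r = 0.901 with Lcn11 and 0.408 with Lcn3, and Mup5 had r = 0.767 with Lcn11 and 0.435 with Lcn3. Both genes were chosen after their values were seen, and their levels are uncertain, because the Mup family holds near-identical copies.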
